A study of Rattus norvegicus with 12 samples.

Results

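The genes described here are the rat genes of the major histocompatibility complex (MHC) and of antigen processing, followed in dorsal root ganglia, the clusters of sensory neuron cell bodies beside the spinal cord. Members are the protein-coding genes whose symbol begins with RT1-, the rat name for the MHC, together with B2m, Cd74, Tap1, Tap2, Tapbp, Psmb8, Psmb9, Psmb10, Ciita and Nlrc5. They make 47 of the 25252 genes of the deposited table, with 36 RT1 genes (27 of class I and 9 of class II) and 11 genes outside RT1, since Tap2 is listed under 2 identifiers. MHC class I molecules consist of a heavy chain and the light chain B2m and show peptides from inside the cell, which proteasomes cut and the TAP transporter carries into the endoplasmic reticulum. Class II molecules pair an alpha with a beta chain, are held by the invariant chain Cd74 until a peptide from the endosome replaces it, and are found mainly on macrophages, dendritic cells and B cells. Nlrc5 and Ciita are the transactivators of class I and class II genes.

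Ganglia came from 12 wild-type Sprague Dawley rats in 3 groups of 4, and ribosomal RNA was removed from the total RNA before directional libraries were made. A first group was injected intraperitoneally with cisplatin, a platinum drug used against tumours, in doses of 3 mg/kg on days 0, 7 and 14, together with CYM-5478 every day from day -1 to day 20. CYM-5478 activates S1P2, a receptor for sphingosine 1-phosphate, and its dose is 0.1 mg/kg in the sample labels and 1 mg/kg in the treatment protocol. A second group received the same cisplatin alone, and the third received vehicle, saline with 0.1% Tween 20 and 1% DMSO. No group received CYM-5478 without cisplatin. The series asks whether S1P2 activation protects against the nerve damage that cisplatin causes. The stock is outbred and MHC genes are highly polymorphic in rats, yet the table holds 1 value per reference transcript and rat.

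Values are FPKM, that is fragment numbers corrected for transcript length and sequencing depth, added up per gene. Libraries summed to between 592845 and 675894 FPKM, and any pair of libraries had a Spearman correlation of 0.963 to 0.987. Absolute depth is unknown. Approximate relative depths were taken from the commonest ratio of low values between vehicle replicate 1 and each library. They were 1.55 for the library of CYM-5478 replicate 2 and 0.889 to 1.19 for the other 11. The ratios were binned, so that vehicle replicate 1 itself came out at 0.979. Markers of the labelled tissue were present: 13 of 13 pan-neuronal, 7 of 7 satellite glia and 8 of 8 Schwann cell genes had a mean of 0.5 FPKM or more. In bulk tissue, fewer cells of a type and less RNA per cell cannot be told apart.

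Of the 47 members, 32 had a mean of 0.5 FPKM or more over the 12 rats and entered the test. The other 15 were RT1-CE3, RT1-DMa, RT1-DMb, RT1-Db2, RT1-Ha, RT1-M1-2, RT1-M1-4, RT1-M1-5, RT1-M10-1, RT1-M2, RT1-M4, RT1-M5, RT1-O1, RT1-T18 and the second identifier of Tap2. RT1-DMa and RT1-Ha were listed at 0 in all 12 libraries, and no single value among these 15 exceeded 0.974 FPKM. Just under the limit lay RT1-O1 (mean 0.218 FPKM) and RT1-M2 (0.304 FPKM), and just above it RT1-CE2 (0.508 FPKM) and RT1-M6-2 (0.607 FPKM). By mean level, Cd74 (332 FPKM), B2m (258 FPKM) and the class II gene RT1-Da (130 FPKM) stood far above the others.

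No member reached an adjusted p under 0.05 by limma in any of the 3 comparisons. In cisplatin against vehicle 0 of 32 members passed, where 10.7% of the 16753 genes tested did. With CYM-5478 and cisplatin against cisplatin alone 0 of 32 passed, where 5.62% of all genes did, and against vehicle 0 of 32 and 0% of all genes. At an unadjusted p under 0.05, 2 members, B2m and Psmb9, were higher with cisplatin than with vehicle (28.4% of all genes were past that level). With CYM-5478 and cisplatin against cisplatin alone there were 3 such members, RT1-Da and Cd74 lower and RT1-CE2 higher (24.6% of all genes). Against vehicle there was 1, RT1-CE2, higher (5.79% of all genes). RT1-CE2 passed the filter only through its level in the rats given CYM-5478. In cisplatin against vehicle 0 of 32 members had groups that did not overlap (18.4% of all genes). The lowest adjusted p of any member was 0.0985 for cisplatin against vehicle, 0.153 for CYM-5478 with cisplatin against cisplatin, and 0.840 for CYM-5478 with cisplatin against vehicle.

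**Figure D1:**
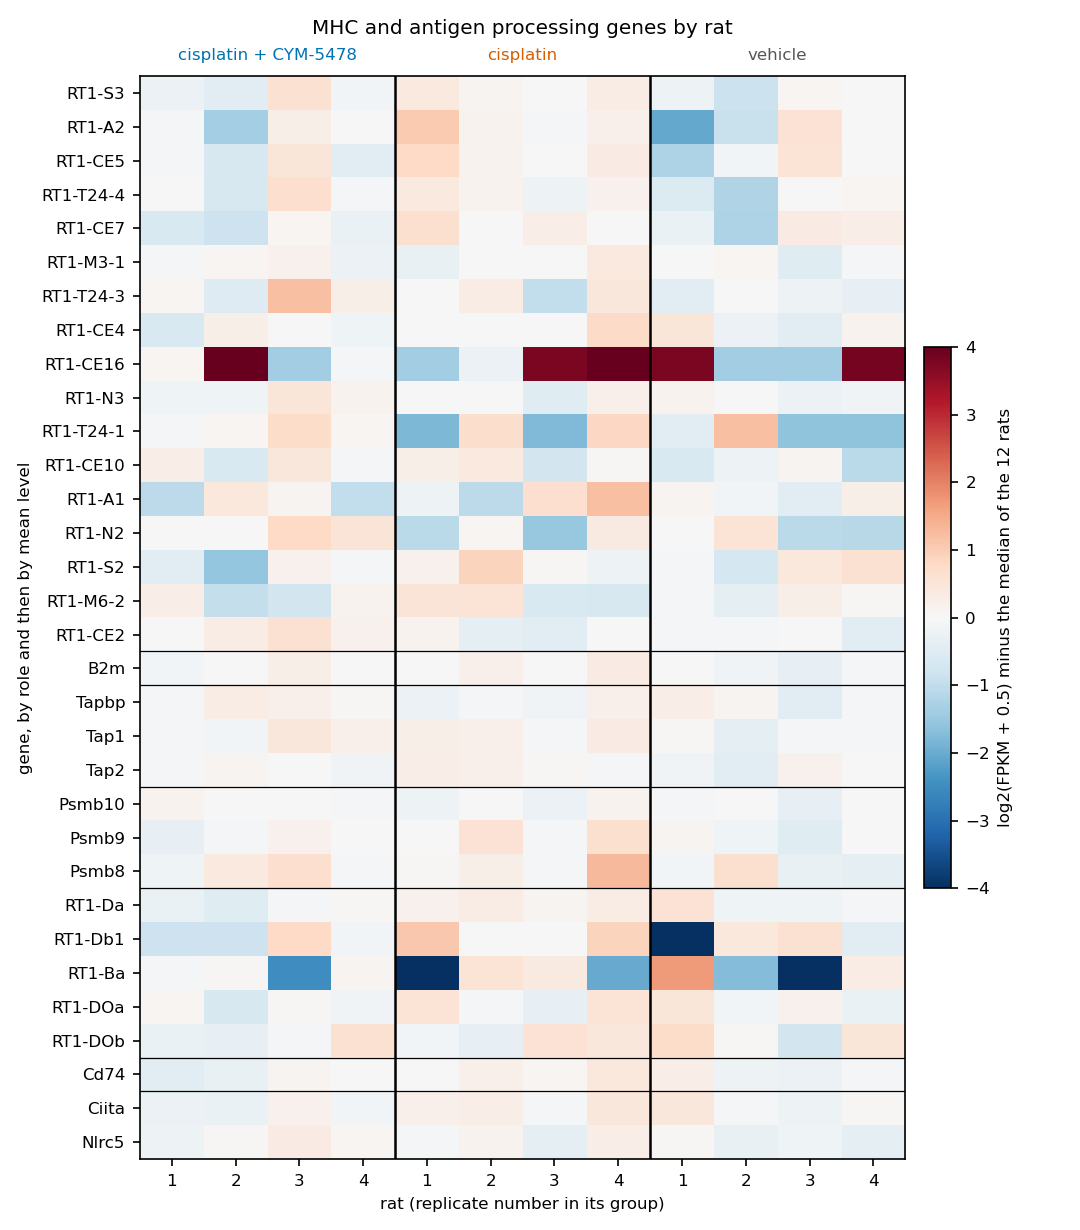
Level of each of the 32 tested genes (rows, by role and mean) in each rat (columns, 4 per group), as log2(FPKM + 0.5) minus the median of the 12 rats, with colours saturating at 4 log2 units either way. The strongest colours lie in RT1-CE16, RT1-Ba and RT1-Db1 and occur within groups, whereas the rows of B2m, Psmb10 and Tap2 are nearly even.

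The class I heavy chain genes varied widely between rats of a group and overlapped between groups. Their summed level was 199, 166, 307 and 205 FPKM in the rats given cisplatin with CYM-5478, 320, 240, 220 and 294 FPKM in those given cisplatin, and 162, 149, 252 and 233 FPKM in vehicle rats. The highest of the 12 rats, cisplatin replicate 1, was 2.15 times the lowest, vehicle replicate 2, and the ranges of the 3 groups overlapped. Near-identical class I copies can share reads, so the value of a single heavy chain gene is uncertain where the counting split them. RT1-A2, a classical heavy chain gene, stood at 46.5, 18.7, 57.5 and 49.6 FPKM with cisplatin and CYM-5478, 100.6, 53.4, 46.1 and 55.6 FPKM with cisplatin, and 11.4, 26.1, 72.7 and 47.8 FPKM with vehicle. Both the lowest and the second highest value thus came from vehicle rats, and the groups overlapped. Its log2 change with cisplatin against vehicle was 0.91 (SE 0.51, limma adjusted p = 0.271), and leaving out 1 library at a time gave 0.43 to 1.30, the lowest without vehicle replicate 1.

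RT1-S3, the class I gene of highest mean, ranged over 38.1 to 78.9 FPKM with cisplatin and CYM-5478, 51.2 to 67.6 FPKM with cisplatin and 28.3 to 54.1 FPKM with vehicle. Its log2 change with cisplatin against vehicle was 0.44 (SE 0.23, adjusted p = 0.243). RT1-CE5, of the cluster named C/E, had 28.7, 19.0, 42.5 and 21.97 FPKM with cisplatin and CYM-5478, 53.0, 33.3, 30.1 and 37.8 FPKM with cisplatin, and 12.4, 27.6, 44.1 and 30.0 FPKM with vehicle. RT1-T24-4 had 29.4, 19.3, 48.4 and 28.7 FPKM with cisplatin and CYM-5478, 39.4, 33.4, 25.9 and 33.8 FPKM with cisplatin, and 20.2, 12.6, 30.7 and 31.8 FPKM with vehicle. CYM-5478 replicate 3 was the highest of its group in all 4 of these genes, and the 3 groups overlapped in each. RT1-CE7 was lower with CYM-5478 and cisplatin (5.98 to 11.7 FPKM) than with cisplatin (10.99 to 17.5 FPKM) without reaching the threshold (log2 change -0.63, SE 0.32, adjusted p = 0.244).

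Several class I genes were near 0 in some rats and clearly present in others of the same group. RT1-CE16 was at 0.906, 21.3, 0 and 0.747 FPKM with cisplatin and CYM-5478, 0, 0.623, 17.4 and 24.9 FPKM with cisplatin, and 17.4, 0, 0 and 18.2 FPKM with vehicle. It had thus 5 rats at 17.4 FPKM or more and 7 at 0.906 FPKM or less, with rats of both kinds in each group. RT1-T24-1 was at 2.65, 2.95, 4.98 and 3.02 FPKM with cisplatin and CYM-5478, 0.449, 4.83, 0.466 and 5.38 FPKM with cisplatin, and 1.96, 7.08, 0.590 and 0.571 FPKM with vehicle. RT1-N2 was at 1.51, 1.57, 3.06 and 2.43 FPKM with cisplatin and CYM-5478, 0.474, 1.65, 0.219 and 2.10 FPKM with cisplatin, and 1.53, 2.52, 0.462 and 0.454 FPKM with vehicle. In both genes the 4 lowest rats were cisplatin replicates 1 and 3 and vehicle replicates 3 and 4. The log2 change of RT1-N2 with CYM-5478 and cisplatin against cisplatin was 0.87 (SE 0.46, adjusted p = 0.268).

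The rats high in RT1-CE16 were also those highest in RT1-A1 and RT1-CE4, an order noticed after the values were seen and given as a description. RT1-A1, the other classical heavy chain gene listed, was at 0.586, 2.47, 1.89 and 0.615 FPKM with cisplatin and CYM-5478, 1.46, 0.579, 3.03 and 4.66 FPKM with cisplatin, and 1.92, 1.58, 1.16 and 2.10 FPKM with vehicle. Its 5 highest rats, at 1.92 FPKM or more, were the 5 rats in which RT1-CE16 was present, and the next rat stood close below at 1.89 FPKM. RT1-CE4 ranged over 5.43 to 9.97 FPKM with cisplatin and CYM-5478, 8.32 to 14.8 FPKM with cisplatin and 6.23 to 11.95 FPKM with vehicle. Its 5 highest rats were again these 5, although 8.60 FPKM in the lowest of them and 8.57 FPKM in the next rat hardly differ. Whether alleles, gene copies present in some animals, or reads shared among copies give these patterns was not tested.

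**Figure D2:**
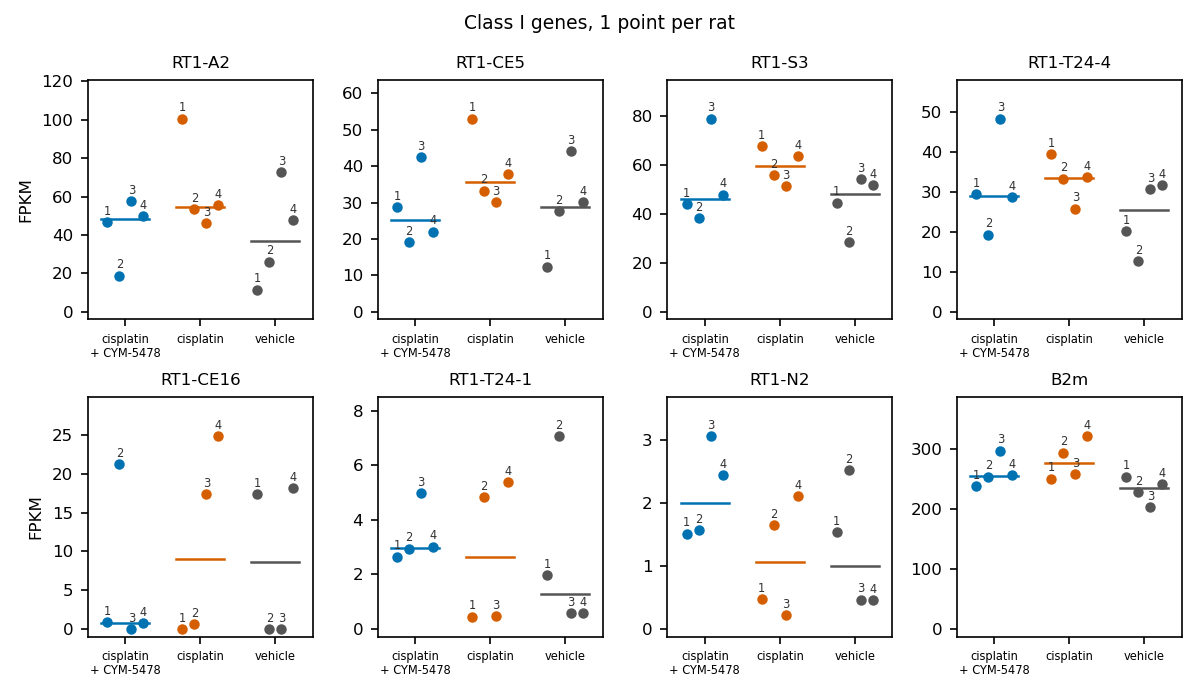
FPKM of 7 class I heavy chain genes and of the light chain gene B2m, 1 point per rat numbered by replicate, with a line at the median of each group. RT1-CE16 splits into rats at 17.4 FPKM or more and rats at 0.906 FPKM or less in every group, while the 12 B2m values lie between 203 and 322 FPKM.

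The remaining class I genes were at lower levels. RT1-T24-3 was at 20.5 FPKM in CYM-5478 replicate 3 and at 4.03 to 11.8 FPKM in the other 11 rats, and RT1-S2 ranged over 0.134 to 2.89 FPKM. RT1-M3-1 (7.54 to 14.2 FPKM), whose mouse counterpart presents formylated peptides, and RT1-N3 (4.38 to 9.02 FPKM) were steadier, and RT1-CE10 ranged over 0.898 to 3.56 FPKM and RT1-M6-2 over 0.098 to 1.19 FPKM. RT1-CE2 was at 0.511, 0.735, 1.01 and 0.628 FPKM with cisplatin and CYM-5478, 0.607, 0.273, 0.242 and 0.5004 FPKM with cisplatin, and 0.435, 0.438, 0.495 and 0.224 FPKM with vehicle. All 4 rats given CYM-5478 were above all vehicle rats (1.58% of all genes did not overlap in this direction). The log2 change was 0.44 against vehicle (SE 0.18, adjusted p = 0.840) and 0.44 against cisplatin (SE 0.18, adjusted p = 0.157), at a level close to the filter. Its group means were 0.721 FPKM with cisplatin and CYM-5478, 0.406 FPKM with cisplatin and 0.398 FPKM with vehicle. RT1-CE2 thus passed the filter of 0.5 FPKM only through the rats given CYM-5478, so its higher level there is no support for a change.

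B2m, the light chain that all classical class I molecules share, varied less between rats of a group than any other tested member. It was at 238, 254, 297 and 257 FPKM with cisplatin and CYM-5478, 250, 294, 258 and 322 FPKM with cisplatin, and 254, 228, 203 and 241 FPKM with vehicle. Cisplatin replicate 4 was the highest and vehicle replicate 3 the lowest, and the groups overlapped. The log2 change was 0.27 with cisplatin against vehicle (SE 0.10, adjusted p = 0.0985; 0.15 and 0.333 when rescaled to TPM) and 0.18 with CYM-5478 and cisplatin against vehicle (SE 0.10, adjusted p = 0.915).

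Genes that supply peptides to class I were close between the groups. Psmb9, a catalytic subunit of the immunoproteasome, was at 9.38, 11.5, 13.4 and 11.95 FPKM with cisplatin and CYM-5478, 11.8, 17.9, 11.3 and 18.8 FPKM with cisplatin, and 12.7, 10.5, 8.42 and 12.05 FPKM with vehicle. Cisplatin replicates 2 and 4 stood above all other rats, and replicates 1 and 3 lay among the vehicle values. The log2 change was 0.41 with cisplatin against vehicle (SE 0.18, adjusted p = 0.171) and -0.32 with CYM-5478 and cisplatin against cisplatin (SE 0.18, adjusted p = 0.311). Psmb8, another such subunit, was at 25.2 FPKM in cisplatin replicate 4 and between 7.53 and 16.4 FPKM in the other 11 rats, and Psmb10, the third, lay between 18.3 and 25.995 FPKM in all 12. Tap1, a subunit of the peptide transporter, was at 8.70, 8.17, 12.3 and 10.4 FPKM with cisplatin and CYM-5478, 10.5, 10.3, 8.46 and 11.2 FPKM with cisplatin, and 9.13, 6.72, 8.63 and 8.71 FPKM with vehicle. Its log2 change was 0.27 with cisplatin against vehicle (SE 0.14, adjusted p = 0.223) and 0.24 with CYM-5478 and cisplatin against vehicle (SE 0.14, adjusted p = 0.915), and the groups overlapped. Tap2, its partner, ranged over 2.15 to 3.85 FPKM, and Tapbp (tapasin), which brings class I molecules to the transporter, over 25.2 to 41.2 FPKM.

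Cd74 and RT1-Da, the 2 most abundant class II pathway members, were lower in rats given CYM-5478 with cisplatin than in rats given cisplatin, without reaching the threshold. RT1-Da, the alpha chain of the RT1-D molecule, was at 105, 90.6, 119 and 131 FPKM with cisplatin and CYM-5478, 142, 156, 135 and 154 FPKM with cisplatin, and 187, 112, 111 and 121 FPKM with vehicle. All rats given CYM-5478 were below all cisplatin rats (6.54% of all genes did not overlap in this direction), while vehicle replicate 1 was above every other rat. The log2 change was -0.40 with CYM-5478 and cisplatin against cisplatin (SE 0.16, adjusted p = 0.153) and 0.17 with cisplatin against vehicle (SE 0.16, adjusted p = 0.516). These 2 comparisons share the cisplatin rats. Cd74 was at 239, 271, 356 and 328 FPKM with cisplatin and CYM-5478, 332, 384, 348 and 444 FPKM with cisplatin, and 393, 285, 282 and 322 FPKM with vehicle. Its groups overlapped, with a log2 change of -0.33 with CYM-5478 and cisplatin against cisplatin (SE 0.15, adjusted p = 0.183) and 0.23 with cisplatin against vehicle (SE 0.15, adjusted p = 0.322).

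RT1-Db1 and RT1-Ba, which encode a beta chain of RT1-D and the alpha chain of the other class II molecule RT1-B, varied widely within each group. RT1-Db1 was at 13.9, 13.8, 43.9 and 23.1 FPKM with cisplatin and CYM-5478, 53.2, 25.4, 25.0 and 47.0 FPKM with cisplatin, and 0, 33.8, 38.6 and 18.5 FPKM with vehicle. RT1-Ba was at 13.6, 14.7, 2.10 and 15.1 FPKM with cisplatin and CYM-5478, 0.0695, 20.9, 18.2 and 3.11 FPKM with cisplatin, and 47.0, 3.85, 0 and 17.6 FPKM with vehicle. The 5 rats lowest in RT1-Ba, at 3.85 FPKM or less, were the 5 highest in RT1-Db1, at 33.8 FPKM or more. They came from all 3 groups, and this was again noticed after the values were seen. Among the other 7 rats the order was not opposite throughout. Cisplatin replicate 2 (20.9 and 25.4 FPKM) was above CYM-5478 replicate 1 (13.6 and 13.9 FPKM) in both RT1-Ba and RT1-Db1. Vehicle replicate 1, listed at 0 for RT1-Db1, was the highest rat for both RT1-Ba and RT1-Da. The log2 change of RT1-Db1 with cisplatin against vehicle was 1.75 (SE 1.12, adjusted p = 0.330) and 0.29 without vehicle replicate 1. That of RT1-Ba was -0.30 (SE 1.42, adjusted p = 0.914) and turned positive without vehicle replicate 1 (0.65), vehicle replicate 4 (0.19) or cisplatin replicate 1 (0.78). RT1-DOa (1.63 to 4.40 FPKM) and RT1-DOb (1.31 to 4.53 FPKM), the chains of a molecule that restrains peptide exchange on class II, overlapped between groups.

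**Figure D3:**
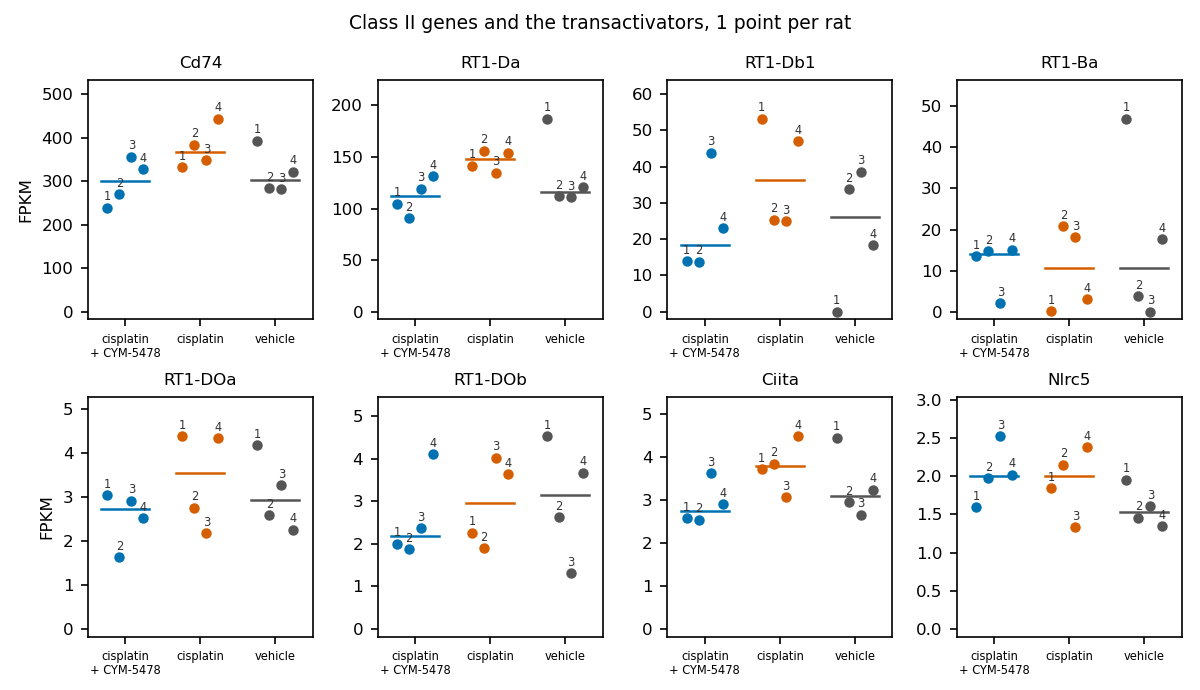
FPKM of Cd74, 5 class II chain genes and the 2 transactivators, 1 point per rat numbered by replicate, with a line at the median of each group. In RT1-Da, rats given CYM-5478 with cisplatin (90.6 to 131 FPKM) lie below cisplatin rats (135 to 156 FPKM), as in 6.54% of all genes. The rats low in RT1-Ba are high in RT1-Db1.

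Summed over the class II genes, the rats stood at 137, 123, 171 and 176 FPKM with cisplatin and CYM-5478, 202, 207, 184 and 213 FPKM with cisplatin, and 243, 155, 154 and 163 FPKM with vehicle. The highest rat, vehicle replicate 1, was 1.98 times the lowest, CYM-5478 replicate 2, and most of each sum is RT1-Da. Ciita was at 2.59, 2.54, 3.63 and 2.90 FPKM with cisplatin and CYM-5478, 3.71, 3.85, 3.07 and 4.50 FPKM with cisplatin, and 4.46, 2.95, 2.66 and 3.24 FPKM with vehicle. Its log2 change was -0.32 with CYM-5478 and cisplatin against cisplatin (SE 0.16, adjusted p = 0.230) and 0.17 with cisplatin against vehicle (SE 0.16, adjusted p = 0.513). Nlrc5 was at 1.60, 1.97, 2.53 and 2.02 FPKM with cisplatin and CYM-5478, 1.84, 2.15, 1.33 and 2.38 FPKM with cisplatin, and 1.96, 1.46, 1.61 and 1.35 FPKM with vehicle. Its log2 change was 0.27 with CYM-5478 and cisplatin against vehicle (SE 0.16, adjusted p = 0.920) and 0.20 with cisplatin against vehicle (SE 0.16, adjusted p = 0.449).

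The promoters of 5 genes are shown because the orders of rats in these genes are described above. In RT1-Da all rats given CYM-5478 and cisplatin lay below all cisplatin rats, without reaching the threshold (limma adjusted p = 0.153). This was so in 1 of 32 members, beside 6.54% of all genes. The 5 rats lowest in RT1-Ba were the highest in RT1-Db1, and RT1-A2 and RT1-CE16 are of class I. Each promoter runs from 250 bases before to 50 after the annotated start, 5′ to 3′ on the strand of the gene. The sequences are from RefSeq on build GRCr8, a reference that need not match these outbred rats. Positions are chr20:4515165-4515464 on the plus strand for RT1-Da, chr20:4576807-4577106 on the plus strand for RT1-Ba, chr20:4560113-4560412 on the minus strand for RT1-Db1, chr20:4872621-4872920 on the plus strand for RT1-A2 and chr20:3265394-3265693 on the minus strand for RT1-CE16. Capitals mark matches, on either strand, to any of the motifs named after them.
RT1-Da: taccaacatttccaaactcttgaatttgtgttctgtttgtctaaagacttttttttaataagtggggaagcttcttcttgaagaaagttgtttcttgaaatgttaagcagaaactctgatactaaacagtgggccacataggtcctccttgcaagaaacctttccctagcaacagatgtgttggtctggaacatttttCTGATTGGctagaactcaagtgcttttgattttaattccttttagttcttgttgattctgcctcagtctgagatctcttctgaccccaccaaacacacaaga
RT1-Db1: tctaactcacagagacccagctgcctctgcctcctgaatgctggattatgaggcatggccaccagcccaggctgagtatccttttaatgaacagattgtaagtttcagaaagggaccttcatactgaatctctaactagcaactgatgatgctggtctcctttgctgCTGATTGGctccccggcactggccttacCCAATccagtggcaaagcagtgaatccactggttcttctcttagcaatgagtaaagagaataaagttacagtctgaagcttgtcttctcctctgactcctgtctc
RT1-Ba: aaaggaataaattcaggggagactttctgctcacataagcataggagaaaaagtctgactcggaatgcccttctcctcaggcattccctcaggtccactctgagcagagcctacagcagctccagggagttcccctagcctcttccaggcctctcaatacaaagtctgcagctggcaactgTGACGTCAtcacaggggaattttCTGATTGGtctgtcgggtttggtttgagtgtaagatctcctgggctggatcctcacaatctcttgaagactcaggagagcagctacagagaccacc
RT1-A2: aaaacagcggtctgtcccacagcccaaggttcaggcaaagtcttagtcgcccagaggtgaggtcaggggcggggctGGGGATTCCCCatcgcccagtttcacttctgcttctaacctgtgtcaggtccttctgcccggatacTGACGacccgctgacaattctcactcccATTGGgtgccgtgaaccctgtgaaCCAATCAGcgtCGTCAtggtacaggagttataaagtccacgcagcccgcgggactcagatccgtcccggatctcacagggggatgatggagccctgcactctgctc
RT1-CE16: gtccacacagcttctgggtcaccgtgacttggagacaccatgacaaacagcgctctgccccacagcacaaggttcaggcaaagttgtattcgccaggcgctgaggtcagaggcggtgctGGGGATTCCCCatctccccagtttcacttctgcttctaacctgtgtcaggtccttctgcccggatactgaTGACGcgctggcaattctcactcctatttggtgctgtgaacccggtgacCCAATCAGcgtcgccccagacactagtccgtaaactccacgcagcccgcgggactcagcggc
Motifs were searched on both strands in 33469 RefSeq rat promoters of 300 bases, where 39 member symbols had a window, 29 of them tested. The Y box core ATTGG, bound by the NF-Y factor, was in 21 of these 29 windows and in 37.5% of all promoters. The class II form CTGATTGG, which contains that core, was in 12 of 29 and in 3.5% of all, among them all 5 promoters printed above. An X2 box core, TGACG, was in 8 of 29 and in 21.2%, and an interferon-stimulated response element core, TTTC, any 2 bases, TT, any base and C, in 10 of 29 and in 8.83%. A kB core, GGGA and TCCCC with 1 base between, was in 5 of 29 (RT1-A1, RT1-A2, RT1-CE4, RT1-CE10 and RT1-CE16) and in 0.302% of all promoters. RT1-CE16, RT1-A1 and RT1-CE4, whose highest rats were the same 5, are among the 5 genes with that last match, and duplicated genes share sequence. RT1-CE10 ran largely the other way, as 4 of its 5 lowest rats were among these, while cisplatin replicate 4 stood at 2.53 FPKM. Of the 5 rats highest in RT1-A2, 1 was among them. A match describes the letters of the reference and no binding was measured. Whether a match bears on the order of the rats, which was noticed after the values were seen, was not tested.

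The spread between rats was wider, in the median, for RT1 genes than for the other antigen processing genes. It is given as the standard deviation on the log2 scale around the group means, with its percentile among all 16753 genes tested, as a description. The median was 0.54 over 17 class I genes, 0.52 over 5 class II chain genes and 0.22 over 10 members outside RT1, beside 0.15 over all genes. RT1-CE16 (2.74), RT1-Ba (2.29), RT1-Db1 (1.80) and RT1-T24-1 (1.16) were in the top 1% of all genes, and 12 of the 32 members were in the top 5%, all of them RT1 genes. Next came RT1-A2 (0.83), RT1-N2 (0.74), RT1-A1 (0.74), RT1-S2 (0.61), RT1-T24-3 (0.57) and RT1-CE5 (0.56). B2m (0.15, percentile 49.3) and Psmb10 (0.15, percentile 50.1) lay at the middle of all genes, and Psmb8 (0.51, percentile 94.8) had the largest spread outside RT1. Within the genes of similar mean level the median percentile was 95.7 for class I, 91.7 for class II and 74.8 outside RT1. A gap of more than 1 log2 unit between neighbouring rats occurred in 5 of the 32 genes, RT1-Db1, RT1-CE16, RT1-Ba, RT1-T24-1 and RT1-N2. In RT1-Db1 it lay between vehicle replicate 1, listed at 0, and the other 11 rats (13.8 to 53.2 FPKM). That 0 may be a failed estimate, and the spread of RT1-Db1 and its place in the top 1% include it.

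**Figure D4:**
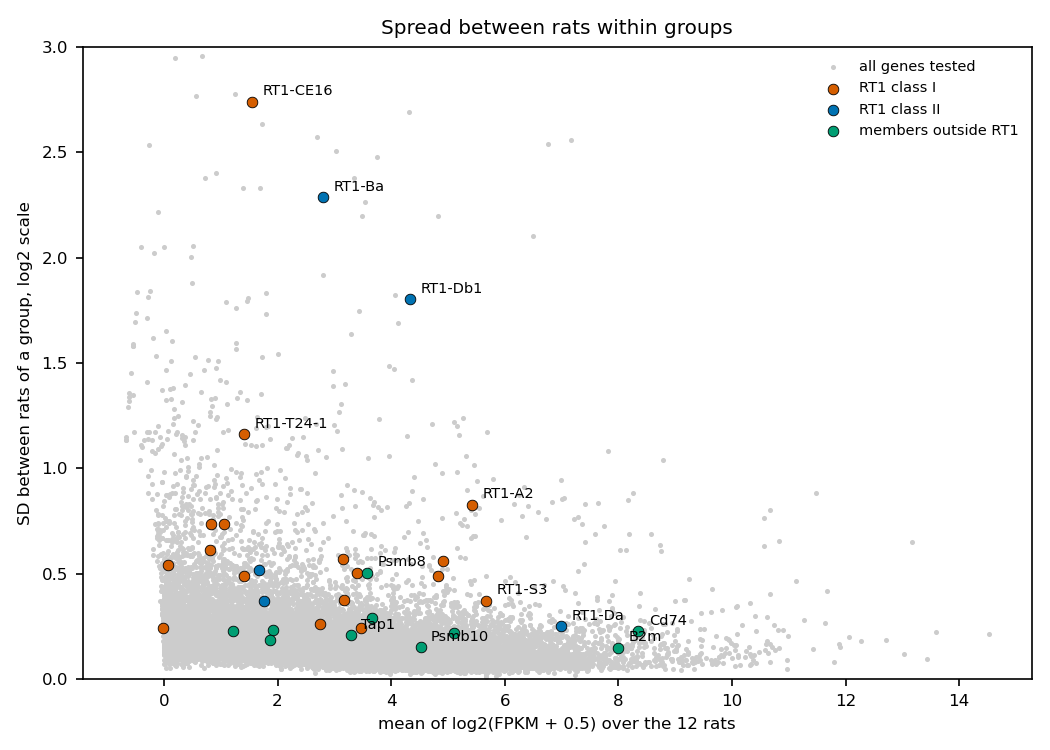
Standard deviation between rats around the group means (y axis, log2 scale) against the mean of log2(FPKM + 0.5) (x axis) for all 16753 genes tested (grey, 8 of them above the top of the plot at 3) and for the 32 members (coloured by class). RT1-CE16, RT1-Ba, RT1-Db1, RT1-T24-1 and RT1-A2 lie above nearly all genes of their level, and B2m, Psmb10 and Tap1 lie within the bulk. The spread of RT1-Db1 includes vehicle replicate 1, listed at 0.

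More members had a change of one sign than of the other in each comparison, with none reaching the threshold. With cisplatin against vehicle 27 of 32 had a positive and 5 a negative log2 change, with a median of 0.20 beside 0.02 over all genes. With CYM-5478 and cisplatin against cisplatin 10 were positive and 22 negative, with a median of -0.16 beside -0.02 over all genes. Against vehicle 21 were positive and 11 negative, with a median of 0.14 beside -0.00 over all genes, but the 5 class II chain genes had 2 positive and 3 negative changes (median -0.14). A library summed to 595745 to 626299 FPKM with cisplatin and CYM-5478, 640712 to 675894 FPKM with cisplatin and 592845 to 608789 FPKM with vehicle, so that all cisplatin libraries had larger sums than the others. Rescaling to TPM, which sets these sums equal, moved the median of all genes to -0.09 with cisplatin against vehicle and to 0.08 with CYM-5478 and cisplatin against cisplatin. The members then had 23 positive and 9 negative changes (median 0.09, or 0.18 above all genes, as before) and 13 positive and 19 negative (median -0.06, or -0.15 relative to all genes, beside -0.14 before). The members are not independent of each other, 41 of 46 symbols being on chromosome 20. The 95% intervals were narrow for B2m with cisplatin against vehicle (0.05 to 0.49) and wide for RT1-CE16 (-3.31 to 4.10), RT1-Ba (-3.39 to 2.79) and RT1-Db1 (-0.68 to 4.19).

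**Figure D5:**
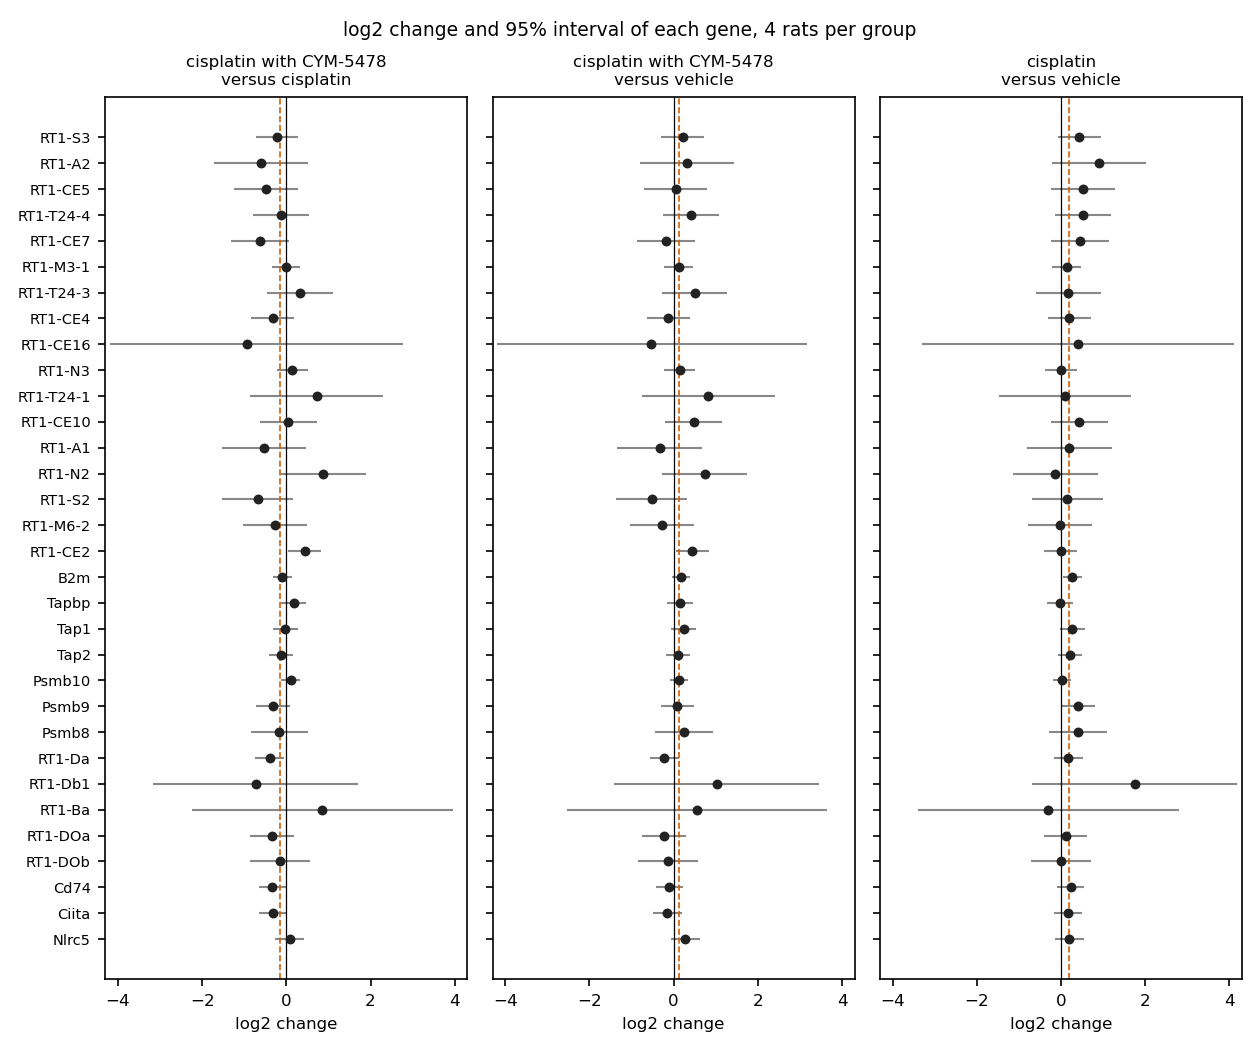
log2 change (points) and 95% interval (lines, cut at 4.2 units) of the 32 members in the 3 comparisons, 4 rats per group, with the median of the members as a dashed line. Intervals of RT1-CE16, RT1-Ba and RT1-Db1 span several log2 units, and the medians lie at -0.16, 0.14 and 0.20 from left to right.

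Cd74 varied together with Ciita and with RT1-Da across rats once group means were removed, and the other class II chain genes were not tested against it. Of 8 relations computed, 5 had a Benjamini-Hochberg adjusted p under 0.05 by two-sided exact permutation within groups (13824 orders, n = 12 rats). Cd74 followed Ciita (Pearson r = 0.88, exact permutation p = 7.96e-04, adjusted p = 0.00637, Spearman rho = 0.82, adjusted p = 0.0382), with r of 0.87, 0.79 and 0.98 within the rats given CYM-5478 with cisplatin, cisplatin and vehicle. Cd74 with RT1-Da gave r = 0.78 (exact permutation p = 0.00969, adjusted p = 0.0241, rho = 0.70, p = 0.0323, adjusted p = 0.0517) and Cd74 with the macrophage receptor gene Csf1r gave r = 0.74 (exact permutation p = 0.0131, adjusted p = 0.0241, rho = 0.72, p = 0.0213, adjusted p = 0.0425). Cd74 with Ptprc, the gene of the leukocyte antigen CD45, gave r = 0.06 (exact permutation p = 0.849, adjusted p = 0.849, rho = -0.16, p = 0.649), with r of -0.81, 0.75 and -0.06 within the rats given CYM-5478 with cisplatin, cisplatin and vehicle. The other 6 relations had a positive r within each group, from 0.22 to 0.97. On the class I side, Tap1 followed Nlrc5 (r = 0.73, exact permutation p = 0.0150, adjusted p = 0.0241, rho = 0.72, p = 0.0198, adjusted p = 0.0425) and Irf1, an interferon-induced transcription factor (r = 0.72, exact permutation p = 0.0117, adjusted p = 0.0241, rho = 0.74, p = 0.00955, adjusted p = 0.0382). Tap1 with Psmb9 (r = 0.53, exact permutation p = 0.0921, adjusted p = 0.105, rho = 0.58, p = 0.0481) and B2m with Tap1 (r = 0.57, exact permutation p = 0.0802, adjusted p = 0.105, rho = 0.58, p = 0.0715) did not pass with all 12 rats.

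All 5 relations that passed lost the threshold under some omission of 1 or 2 rats, while their r stayed at 0.55 or above. Fewer rats also leave fewer orders to permute. Dropping the rats extreme in the first gene narrows its range. Without the 2 rats farthest from the median of the first gene, r was 0.75 for Cd74 with Ciita (adjusted p = 0.0648), 0.70 with RT1-Da (0.131), 0.69 with Csf1r (0.117), 0.89 for Tap1 with Nlrc5 and 0.55 with Irf1 (0.117), so that the relation of Tap1 with Nlrc5 alone still passed by exact permutation. For the pairs that did not pass it was 0.32 for Cd74 with Ptprc, 0.69 for Tap1 with Psmb9 and 0.23 for B2m with Tap1. Both Tap1 with Psmb9 and B2m with Tap1 passed by exact permutation without vehicle replicate 2 (adjusted p = 0.0446 each) or vehicle replicate 3 (0.0268 each). Without vehicle replicate 1, all 5 relations missed the threshold (exact permutation adjusted p of 0.0608 to 0.123). Without cisplatin replicate 3, cisplatin replicate 4 or CYM-5478 replicate 3 each missed it except Cd74 with Ciita, and Tap1 with Irf1 also missed it without vehicle replicate 4, and Cd74 with Csf1r and Tap1 with Nlrc5 without CYM-5478 replicate 4. Over the omissions of 1 library r of the 5 relations stayed between 0.62 and 0.91. By Pearson r of group-centred values over the 12 rats, the genes most like Cd74 outside the members were Pid1 (0.95), Uba7 (0.94), Hdac9 (0.92), Mvp (0.90) and LOC102553249 (0.90). Those most like B2m were Tmem30b (0.95), Bst2 (0.94), Aif1 (0.93), LOC691931 (0.93) and Runx1 (0.93).

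Few other genes of the pathways passed the threshold, and no list was tested against all genes. The shares of all genes past it were 10.7% with cisplatin against vehicle and 5.62% with CYM-5478 and cisplatin against cisplatin. Against vehicle the share was 0%. Of 14 further class I pathway genes, 2 rose and 0 fell with cisplatin against vehicle (median log2 change 0.09): Psme1, an activator subunit of the proteasome (86.0 ± 8.12 FPKM with cisplatin and 68.1 ± 6.03 FPKM with vehicle, SD, n = 4 each, limma adjusted p = 0.0410), and Fcgrt, the class I-like receptor that recycles antibodies (77.6 ± 5.60 FPKM with cisplatin and 64.8 ± 5.96 FPKM with vehicle, adjusted p = 0.0442). None of the 14 passed limma's test with CYM-5478 and cisplatin against cisplatin (median -0.03), where Fcgrt (log2 change -0.22, adjusted p = 0.0871) and Psmb5, a standard proteasome subunit (0.18, adjusted p = 0.145), had the smallest p. None passed against vehicle (median 0.06), where these were Lnpep, a peptidase (-0.15, adjusted p = 0.840), and Pdia3, a disulfide isomerase of the loading complex (0.10, adjusted p = 0.863). Of 17 further class II pathway genes, Ctsb, the lysosomal protease cathepsin B, fell with cisplatin against vehicle (535 ± 28.6 FPKM with cisplatin and 624 ± 19.7 FPKM with vehicle, SD, n = 4 each, adjusted p = 0.0375) and 0 rose (median 0.12). With CYM-5478 and cisplatin against cisplatin Ctsb rose (624 ± 32.6 FPKM with CYM-5478 and 535 ± 28.6 FPKM without it, adjusted p = 0.0496) and 0 fell (median -0.10). Against vehicle 0 of 17 passed (median 0.02), with the smallest p for Nfyc, a subunit of NF-Y (log2 change 0.15, adjusted p = 0.914), and the protease gene Ctss (0.15, adjusted p = 0.968).

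Of 15 genes of interferon and NF-kB signalling, Nfkb1, a subunit of NF-kB, rose with cisplatin against vehicle (29.0 ± 2.08 FPKM with cisplatin and 24.2 ± 1.70 FPKM with vehicle, SD, n = 4 each, limma adjusted p = 0.0308) and 0 fell (median 0.09). The shares of all genes past the threshold were 10.7% in this comparison and 5.62% with CYM-5478 and cisplatin against cisplatin. None passed with CYM-5478 and cisplatin against cisplatin (median -0.06), where Rela, another subunit of NF-kB (log2 change -0.18, adjusted p = 0.107), and the kinase gene Jak1 (0.21, adjusted p = 0.121) had the smallest p. None passed against vehicle (median 0.06), where Nfkb1 had a log2 change of 0.14 (adjusted p = 0.855). These single calls are close to the threshold. Each cisplatin against vehicle call (Psme1, Fcgrt, Ctsb and Nfkb1) ended when vehicle replicate 2, or replicate 1 or 4 of cisplatin, was left out, and in the 12 omissions of 1 library Psme1 kept its call in 4, Fcgrt in 5, Ctsb in 5 and Nfkb1 in 8. The call of Ctsb with CYM-5478 and cisplatin against cisplatin was kept in 1 of 12. Rescaled to TPM, the cisplatin against vehicle changes of Psme1 (log2 change 0.21, adjusted p = 0.140), Fcgrt (0.13, adjusted p = 0.260) and Nfkb1 (0.13, adjusted p = 0.191) did not pass, while Ctsb kept both calls (-0.35 and 0.34). A fit on the 8 libraries of the 2 groups, or with title numbers as a block, ended all 5 calls (adjusted p of 0.0580 to 0.0924 and 0.183 to 0.421).

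Immune cell types, among them those that mainly carry class II, were read from marker lists. The shares of all genes past the threshold were 10.7% with cisplatin against vehicle and 5.62% with CYM-5478 and cisplatin against cisplatin. Against vehicle the share was 0%. In lists this short, 0 or 1 call therefore does not show that these cells were unchanged. Macrophage markers had 0 of 13 past the threshold by limma in each comparison, with a median log2 change of 0.27 with cisplatin against vehicle, -0.21 with CYM-5478 and cisplatin against cisplatin, and 0.06 against vehicle. Their summed level was 388 to 418 FPKM with cisplatin and CYM-5478, 408 to 597 FPKM with cisplatin and 318 to 443 FPKM with vehicle, and no matched marker was at 0 in all rats. Fcer1g, an Fc receptor subunit, had the smallest p with cisplatin against vehicle (log2 change 0.64, SE 0.20, adjusted p = 0.0644). B cell markers summed to 10.2 to 11.5 FPKM with cisplatin and CYM-5478, 9.20 to 31.1 FPKM with cisplatin and 7.13 to 17.3 FPKM with vehicle, and 0 of 5 passed in each comparison. Dendritic cell markers summed to 16.4 to 19.4 FPKM with cisplatin and CYM-5478, 16.2 to 20.0 FPKM with cisplatin and 16.6 to 20.0 FPKM with vehicle. Of 6, 1 passed with cisplatin against vehicle: Flt3, a receptor of dendritic cell precursors, fell (4.14 FPKM with cisplatin and 6.02 FPKM with vehicle, log2 change -0.50, adjusted p = 0.0205). The other 5 had positive changes that did not pass (0.04 for Zbtb46 to 0.53 for Itgax), and the median of the list was 0.17. None of the 6 passed limma's test with CYM-5478 and cisplatin against cisplatin (median -0.13) or against vehicle (median 0.06). T and NK cell markers (33.9 to 43.3 FPKM with cisplatin and CYM-5478, 38.3 to 52.8 FPKM with cisplatin, 31.0 to 43.0 FPKM with vehicle) had 0 of 5 and neutrophil markers (213 to 2350 FPKM with cisplatin and CYM-5478, 495 to 1912 FPKM with cisplatin, 431 to 1131 FPKM with vehicle) 0 of 9 in each comparison.

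Pan-neuronal markers differed between the same groups, and most other resident lists had few calls. Pan-neuronal genes summed to 3715 to 4667 FPKM with cisplatin and CYM-5478, 1938 to 3148 FPKM with cisplatin and 3627 to 5078 FPKM with vehicle. Of 13, 11 fell and 0 rose with cisplatin against vehicle, 8 rose and 0 fell with CYM-5478 and cisplatin against cisplatin, and 0 passed against vehicle. Satellite glia markers had 1 of 7 higher and 2 lower with cisplatin against vehicle, endothelial markers 1 of 8 higher, and Schwann cell and skeletal muscle markers 0 of 8 and 0 of 7, beside 10.7% of all genes. With CYM-5478 and cisplatin against cisplatin 1 of 8 endothelial and 1 of 8 Schwann cell markers fell, and 0 of 7 satellite glia and 0 of 7 muscle markers passed, beside 5.62% of all genes, and against vehicle 0 passed in all these lists. Every marker call with cisplatin against vehicle ended when cisplatin replicate 4 was left out, as 0 of all genes then passed (4086 at an unadjusted p under 0.05). Those with CYM-5478 and cisplatin against cisplatin ended likewise when vehicle replicate 1, replicate 1 or 4 of cisplatin, or replicate 2, 3 or 4 of CYM-5478 was left out (0 of all genes, 3006 to 4020 at an unadjusted p under 0.05). The part of macrophage or neuronal content in the levels of Cd74, RT1-Da and B2m was not tested.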

How the data were processed

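The authors deposited FPKM per transcript and rat, and the submitters' processing notes list STAR 2.7.8a, Bowtie2 2.0.6, DESeq2, FastQC, bcl2fastq 2.20 and the build Rnor_6.0, with no role for each. What computed the FPKM is not given in the sources used here. FPKM were summed by gene identifier over 30275 transcripts (59 of members). Libraries were scaled by the median ratio over genes of mean 1 FPKM or more (factors 0.998 to 1.01). Genes of mean 0.5 FPKM or more were tested as log2(FPKM + 0.5), which understates changes of low genes, with limma 3.58.1 in R 4.3.3 on all 12 libraries (3 groups, variance trend, 9 residual degrees of freedom), and Benjamini-Hochberg adjusted p under 0.05 over all 16753 genes counted as past the threshold. Figures and permutations used Python 3.11.15 with scipy 1.17.1 and matplotlib 3.10.9. Absolute depth is unknown, so no counting interval is given, and a value listed at 0 may be a failed estimate: 7 genes were listed at 0 in 1 library and at 5 FPKM or more in the other 11, RT1-Db1 among them.

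The members and gene lists were chosen with earlier results of these data known. Per-rat values are given for the 10 members of highest mean, the 10 of largest spread, Ciita, Nlrc5 and, chosen after seeing values, Psmb9, Tap1, RT1-CE2 and the orders of rats. Of the pathway lists, genes past the threshold or else the 2 of smallest p are named, except 1 that is not reported here. Marchf1 and Adgre1 were not matched. Replicates are separate rats, numbered as in the sample descriptions. The workflow was tested on simulated data. Alternatives were other pseudocounts, filters, scalings, array weights, 8-library fits, replicate blocks and leaving out each library.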

Additional observations from a re-analysis of the deposited data

Results flagged for a closer look

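In 96 groups of 4 rats (32 members in 3 groups), 6 had 1 rat whose gap to its nearest neighbour was too large a part of the whole range of the group by Dixon's test, and chance gives this in about 1 group in 20. With cisplatin and CYM-5478, RT1-CE16 was at 21.3 FPKM in replicate 2 and at 0 to 0.906 FPKM in the other 3 rats, RT1-T24-1 at 4.98 FPKM in replicate 3 and 2.65 to 3.02 FPKM in the others, and RT1-Ba at 2.10 FPKM in replicate 3 and 13.6 to 15.1 FPKM in the others. Cisplatin replicate 4 stood above its group in RT1-CE4 (14.8 FPKM, others 8.32 to 8.60 FPKM) and Psmb8 (25.2 FPKM, others 9.62 to 11.8 FPKM). Vehicle replicate 1 stood above its group in RT1-Da (187 FPKM, others 111 to 121 FPKM).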

How the results depend on the processing

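Of 69 counts of members past limma's threshold under the alternatives, 68 were 0. The exception was cisplatin against vehicle with no filter, where 1 passed (adjusted p = 0.0306), RT1-M1-2, at 0 to 0.152 FPKM with cisplatin and 0.220 to 0.342 FPKM with vehicle. Of 96 member changes 63 kept their sign under every alternative, and 72 of 1152 values without 1 library and 22 of 1038 others had the opposite sign. For RT1-CE16 with cisplatin against vehicle the log2 change was -0.0021 with array weights, -2.16 with title numbers as a block and -0.49 to 1.40 without 1 library, and for RT1-Ba -1.54 to 0.78 without 1 library.

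Over all genes, cisplatin against vehicle gave 3294 calls rescaled to TPM (117 higher, 3177 lower), 961 with 8 libraries, 0 with the title-number block (2535 at an unadjusted p under 0.05) and 0 to 1847 without 1 library, namely 0 (cisplatin replicate 4 left out), 3 (vehicle replicate 2), 643 (cisplatin replicate 1) and 1167 (vehicle replicate 3). CYM-5478 with cisplatin against cisplatin gave 2 with no filter, 2574 as TPM (2525 higher, 49 lower), 0 with 8 libraries, 452 with array weights, 0 with the title-number block and 0 to 1085 without 1 library, namely 0 (vehicle replicate 1, cisplatin 1 or 4, CYM-5478 2, 3 or 4 left out), 391 (vehicle replicate 3) and 582 (vehicle replicate 4). Against vehicle it gave 1 with 8 libraries and 0 to 2 without 1 library (2 without CYM-5478 replicate 2). The cause of these moves was not tested. Description numbers as a block gave 1881, 1304 and 0 calls, beside 1794, 941 and 0 without a block. Same-numbered rats correlated at -0.24 to 0.15 in their deviations. With 4 rats per group these values cannot settle whether same-numbered rats form pairs or share a batch.

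Pearson r of group-centred values without 1 library ran over 0.83 to 0.91 for Cd74 with Ciita, 0.72 to 0.85 with RT1-Da, 0.67 to 0.89 with Csf1r and -0.34 to 0.28 with Ptprc, and over 0.41 to 0.65 for Tap1 with Psmb9, 0.64 to 0.81 with Nlrc5, 0.62 to 0.82 with Irf1 and 0.39 to 0.72 with B2m. Cd74 with Ptprc was -0.0253 as TPM and -0.0131 after quantile normalization. Without the 2 farthest rats r was 0.75 for Cd74 with Ciita, 0.70 with RT1-Da and 0.69 with Csf1r, and 0.55 for Tap1 with Irf1. Median spreads of RT1 genes stayed above that of all genes in each alternative run for them (class I 0.48 to 0.59, class II 0.42 to 0.60, all genes 0.14 to 0.16). Absolute depth is unknown, so what it limits was not measured.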
